A study of Mus musculus with 13 samples.

Results

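The plasma of vehicle-dosed mdx mice was compared with that of naive wild type (wt) mice by small RNA sequencing, using 7 of the 13 libraries of the series. The samples were chosen by their titles, which name 4 vehicle mice (numbers 40, 41, 42 and 43) and 3 naive wt mice (numbers 86, 89 and 95). The vehicle mice were C57BL/10ScSn-Dmdmdx/J males, whose dystrophin gene carries a nonsense mutation and which are a standard model of Duchenne muscular dystrophy. They received 0.5% methylcellulose by gavage, the suspension without drug that served as the control for Givinostat, over 15 weeks. The naive wt mice were untreated C57BL/10J males, in which muscle function was also measured. Genotype and gavage therefore differed together, and their effects cannot be told apart from these 2 groups alone. The strain label of all 13 samples reads C57BL/10J, while the treatment notes and methods give the mdx strain for the vehicle mice. Dystrophin is not read by a miRNA assay, so the genotype could not be checked in the counts. Mice were bought at 7 to 8 weeks of age, and blood was drawn from behind the eye into EDTA at the end of dosing. The other libraries came from 3 naive mdx mice, which received nothing, and from 3 mdx mice given Givinostat, which entered the fit only.

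miRNAs are short RNAs that guide silencing proteins to matching sites in messenger RNAs, mostly through their seed, bases 2 to 8. In plasma they are carried in vesicles or bound to proteins and lipoproteins, and each tissue releases its own set. Striated muscle fibres are the known source of miR-1, miR-133 and miR-206, hepatocytes of miR-122, and red blood cells of miR-451 and miR-144. Muscle fibres without dystrophin tear during contraction, and muscle miRNAs in blood have been studied as readouts of that damage. A level in plasma reflects both how many cells release a miRNA and how much each releases, and fewer cells of a type and less RNA per cell cannot be told apart here.

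The miRNAs on which the comparison turned are shown with their mature sequences from RefSeq (GRCm38.p6), 5′ to 3′, with the seed in capitals. The first set holds muscle miRNAs and the miRNAs that rose with them.

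miR-206-3p: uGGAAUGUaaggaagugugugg

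miR-133b-3p: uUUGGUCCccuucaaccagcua

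miR-378b: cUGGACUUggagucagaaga

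miR-378c: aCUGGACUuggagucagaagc

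miR-378d: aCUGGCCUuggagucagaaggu

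miR-22-3p: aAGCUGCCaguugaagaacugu

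miR-675-3p: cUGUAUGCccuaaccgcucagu

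miR-675-5p: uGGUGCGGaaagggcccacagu

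miR-483-3p: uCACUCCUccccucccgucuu

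miR-193b-3p: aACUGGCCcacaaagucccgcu

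miR-149-5p: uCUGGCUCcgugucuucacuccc

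miR-206-3p lies at chr1:20679055-20679076 and miR-133b-3p at chr1:20682834-20682855, both on the plus strand and in an exon of the long non-coding RNA Gm28653, with 3686 bases between their hairpins. Both miR-675 arms come from an exon of H19, with the 3p arm at chr7:142577078-142577099 on the minus strand. miR-483-3p lies in an intron of Igf2 at chr7:142654932-142654952 on the same strand, and miR-22-3p in an exon of its host gene Mir22hg at chr11:75463772-75463793 on the plus strand. The second set holds miRNAs that were lower in vehicle plasma and 1 pair of arms, of let-7f-1, that moved apart. miR-192-5p and miR-215-5p share a seed, as do miR-141-3p and miR-200a-3p.

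miR-148a-3p: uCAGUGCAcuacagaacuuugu

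miR-192-5p: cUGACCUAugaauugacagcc

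miR-215-5p: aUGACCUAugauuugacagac

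miR-144-3p: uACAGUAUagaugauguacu

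miR-451a: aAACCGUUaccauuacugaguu

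miR-205-5p: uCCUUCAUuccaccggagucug

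miR-141-3p: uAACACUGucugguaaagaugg

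miR-200a-3p: uAACACUGucugguaacgaugu

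let-7f-5p: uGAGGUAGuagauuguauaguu

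let-7f-1-3p: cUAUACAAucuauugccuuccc

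The deposited raw counts summed to 1283646 to 1522871 per vehicle mouse and to 1446195 to 2899315 per naive wt mouse. Of 1907 miRNAs listed, 1086 had a count in these 7 libraries, and the 368 that passed the filter on low counts held 99.92% to 99.96% of all counts. Levels are given in CPM, raw counts relative to the library total after scaling by TMM, which sets the libraries against each other by the bulk of their miRNAs. Mice are listed in the order 40, 41, 42, 43 and 86, 89, 95. A count of 0 allows 1.03 to 2.34 CPM by library totals (3 counts, before scaling by TMM), and these limits cover counting error only.

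Plasma of vehicle-dosed mdx mice differed widely from that of naive wt mice, with muscle miRNAs far higher and liver and epithelial miRNAs lower. On the red blood cell list miR-451a and miR-144 were lower, and miR-486, which muscle also expresses, was higher. In the edgeR quasi-likelihood test, 89 of 368 miRNAs were higher (24.2%) and 85 were lower (23.1%), with p adjusted by Benjamini-Hochberg and called under 0.05. These shares are the background for the counts of every list below. The rises were the larger changes. Among called miRNAs the median log2 fold change was 2.12 for those higher and −1.23 for those lower, and the median over all tested miRNAs was −0.11. Of the 89 higher miRNAs 48 changed over 4-fold and 13 over 16-fold, against 5 and 0 of the 85 lower, and 2 of the 13 had no count in naive wt, where the fitted size is not a measurement. CPM of the 2 groups did not overlap for 192 miRNAs (52.2%). These included 156 of the 174 called miRNAs, so a lack of overlap adds little to a call. The split of the calls moved with the scaling, from 51.1% higher in the main test to 66.7% with library totals (88 higher and 44 lower), and to 41.1% with upper-quartile factors (76 and 109), settings that moved the median over all tested miRNAs by 0.20 and −0.18. The number lower was also 51 without vehicle mouse 40 and 46 without vehicle mouse 43.

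**Figure D1:**
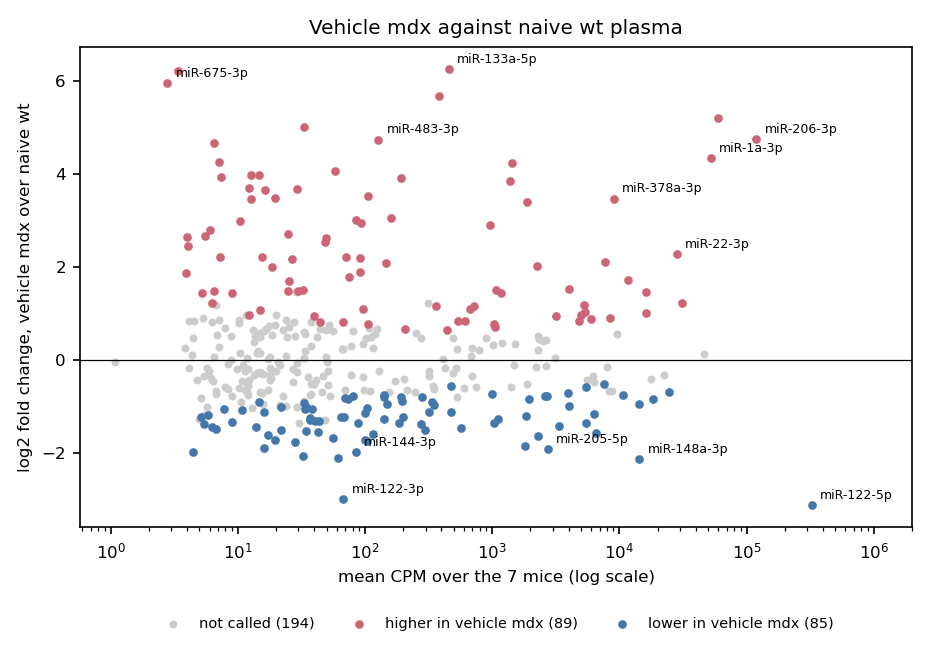
Each point is 1 of the 368 tested miRNAs, with the mean CPM over the 7 mice on a log axis and the log2 fold change of vehicle mdx over naive wt on the other, coloured by the edgeR call. The 89 higher miRNAs reach 6.27, while the lowest of the 85 lower ones, miR-122-5p, stands at −3.12.

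The make-up of the libraries was exchanged between muscle and liver. The 13 miRNAs of the muscle list (both arms of miR-1a, miR-133a, miR-133b, miR-206 and miR-499, and the 3p arms of miR-208a and miR-208b) took 42.6%, 38.6%, 40.3% and 35.5% of the raw counts in the vehicle mice. They took 1.33%, 2.09% and 0.707% in the naive wt mice. miR-122-5p, the most abundant miRNA of hepatocytes, took 2.98%, 6.21%, 16.1% and 3.09% of the counts with vehicle and 59.8%, 37.6% and 64.6% in naive wt. Neither share overlapped between the groups. The muscle share was 39.3% ± 2.99 (SD, n = 4) against 1.38% ± 0.695 (n = 3), and the miR-122-5p share 7.09% ± 6.18 against 54.0% ± 14.4. All other miRNAs together took 53.6% ± 7.39 and 44.6% ± 13.8, which overlapped (two-sided exact permutation p = 0.343). Without miR-206-3p the muscle share was still 18.95% against 0.698%.

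Shares of one library constrain each other, so the log2 ratio of miR-206-3p to miR-122-5p was taken within each mouse, which needs no scaling. It was 2.91, 1.83, 0.16 and 2.60 in the vehicle mice and −6.34, −5.40 and −7.33 in the naive wt mice. The means differed by 8.23 on the log2 scale, with no overlap. For the muscle share, the miR-122-5p share and this ratio the two-sided exact permutation test gave p = 0.0571, the smallest that the 35 assignments of 4 and 3 mice allow.

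**Figure D2:**
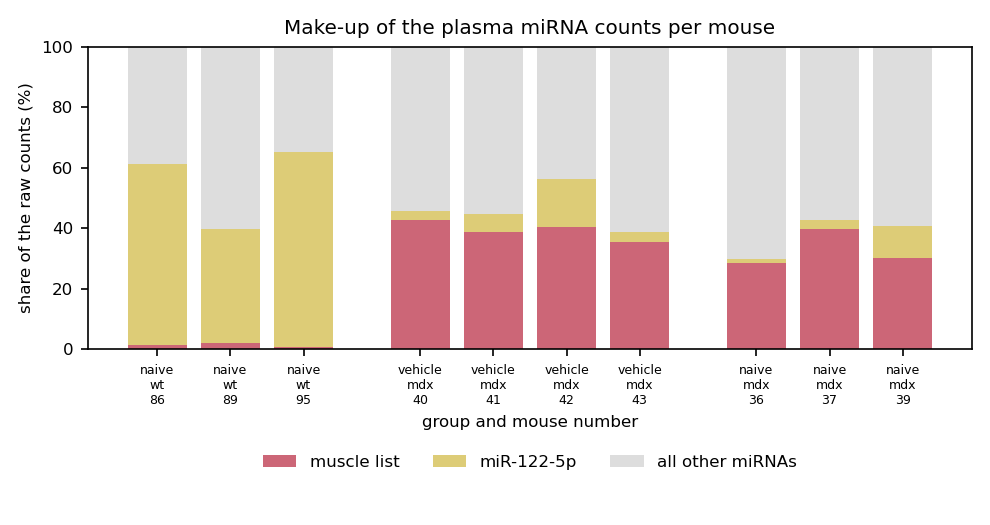
Stacked bars give, for each mouse, the percentage of raw counts in the muscle list, in miR-122-5p and in all other miRNAs, with the naive mdx mice for context. The muscle part fills 35.5% to 42.6% of the vehicle bars and at most 2.09% of the naive wt bars, where miR-122-5p fills 37.6% to 64.6%.

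The muscle miRNAs gave the largest rises. Of 8 members tested 7 were higher and none lower, and the list's median log2 fold change was 4.88. Among the 7, miR-1a-1-5p and miR-208b-3p passed the filter on low counts only through mdx libraries. miR-206-3p, which is made in skeletal muscle and rises in regenerating fibres, read 224141, 208219, 210895 and 168422 CPM in the vehicle mice and 9808, 7243 and 5490 CPM in the naive wt mice. The lowest vehicle mouse stood far above the highest naive wt mouse. Its log2 fold change was 4.76 (SE of 0.36, edgeR adjusted p = 5.2e-08), a 27.1-fold rise.

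miR-133b-3p, transcribed with miR-206, read 727, 369, 751 and 793 CPM with vehicle and 17.7, 14.7 and 6.59 CPM in naive wt. Its log2 fold change was 5.68 (SE of 0.45, edgeR adjusted p = 5.7e-08). Mouse 41 lay well under the other 3 vehicle mice, yet above all naive wt mice. miR-133a-3p, made together with miR-1a in heart and skeletal muscle, read 128409, 64175, 113082 and 103611 CPM against 2863, 3731 and 1702 CPM, a log2 fold change of 5.21 (SE 0.42). Reads of miR-133a-3p and miR-133b-3p, which are near-identical, may have been split between them in the counting.

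The other strand of miR-133a, miR-133a-5p, changed most among miRNAs that averaged 10 CPM or more. It read 901, 692, 866 and 704 CPM with vehicle and 17.1, 7.33 and 6.59 CPM in naive wt, and its log2 fold change was 6.27 (SE of 0.42, edgeR adjusted p = 2.49e-08), or 77.0-fold. miR-1a-3p, which promotes differentiation of muscle, read 70637, 90690, 146569 and 45960 CPM against 4782, 5959 and 2383 CPM. Here the vehicle mice were spread over a wider range, and the log2 fold change was 4.34 (SE of 0.53, edgeR adjusted p = 7e-06).

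The rarer members did not all follow. miR-1a-1-5p, the other arm of miR-1a-1, rose by 5.01 (SE 0.61) on the log2 scale from at most 2.82 CPM in naive wt, and by 5.61 or 4.41 without naive wt mouse 89 or 95. miR-208b-3p, encoded within the slow myosin gene Myh7, read 9.08, 12.5, 12.3 and 4.48 CPM with vehicle and 2.53, 1.13 and 0.470 CPM in naive wt (log2 fold change 2.80 with SE 0.56, edgeR adjusted p = 0.000661). Its naive wt levels lay near what 3 counts allow, so the size of the change is uncertain. It was 3.49 without naive wt mouse 86 and 1.64 with limma at a pseudocount of 5. Both miR-1a-1-5p and miR-208b-3p passed the filter on low counts only through mdx libraries. Their calls are therefore not independent support. miR-499-5p, encoded within the slow myosin gene Myh7b, read 130, 230, 87.0 and 69.8 CPM against 76.6, 117 and 48.0 CPM. These ranges overlapped, and its log2 fold change of 0.68 (95% interval −0.16 to 1.53) did not pass the test (adjusted p = 0.157), though it did without mouse 43 (adjusted p = 0.0392). The 5 members that were not tested were rare. miR-208a-3p of heart muscle had 2, 25, 7 and 5 raw counts with vehicle and 0, 5 and 0 in naive wt.

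The miR-378 family and miR-22 rose with the muscle list. miR-378a is encoded within Ppargc1b, a regulator of mitochondrial metabolism, and is abundant in muscle. All 5 tested members of its family were higher, with log2 fold changes from 3.47 to 4.24 and a median of 3.92. miR-378a-3p read 12967, 17212, 14398 and 14627 CPM with vehicle and 1306, 1407 and 1285 CPM in naive wt, and the naive wt values were close together. Its log2 fold change was 3.47 (SE of 0.27, edgeR adjusted p = 5.7e-08). The other arm, miR-378a-5p, rose by 4.24 (SE 0.32) on the same scale.

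miR-378b, miR-378c and miR-378d are encoded at other loci and differ in their seeds from each other, as printed above. They rose by 3.92 (SE 0.38), 3.69 (SE 0.39) and 4.07 (SE 0.42) on the log2 scale, and in each the lowest vehicle mouse was above the highest naive wt mouse. Because they closely resemble miR-378a-3p, some of their reads may belong to it.

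miR-22-3p, abundant in heart and skeletal muscle, read 37206, 36887, 48704 and 48682 CPM with vehicle and 9405, 8263 and 8784 CPM in naive wt. The log2 fold change was 2.28 (SE of 0.25, edgeR adjusted p = 2.92e-06), and that of miR-22-5p was 2.91 (SE 0.30). Groups did not overlap for either arm, as was so for 156 of all 174 called miRNAs.

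**Figure D3:**
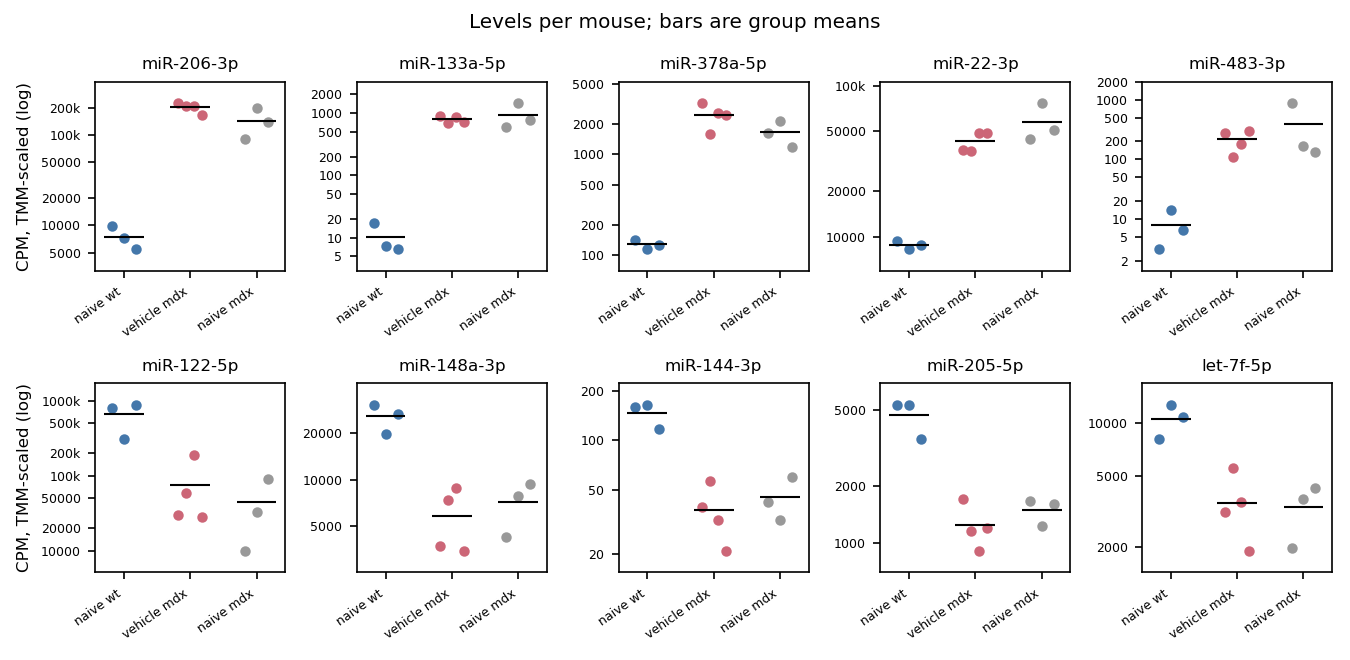
Each panel shows the CPM of 1 miRNA on a log axis, with a point per mouse and a bar at the group mean, for naive wt, vehicle mdx and naive mdx. The vehicle and naive wt points do not overlap in any of the 10 panels, for instance 168422 to 224141 against 5490 to 9808 CPM for miR-206-3p and 27824 to 188547 against 306406 to 881184 CPM for miR-122-5p.

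miRNAs of the imprinted H19 and Igf2 genes rose. H19 is a non-coding RNA that is switched on when muscle regenerates and gives rise to miR-675, and Igf2 encodes a fetal growth factor and hosts miR-483. All 4 of these miRNAs were higher, with a median log2 fold change of 4.50, or 3.90 with miR-675-3p at its lower bound. Both miR-675 arms passed the filter on low counts only through mdx libraries. miR-483-3p read 279, 111, 182 and 293 CPM with vehicle and 3.17, 14.1 and 6.59 CPM in naive wt (log2 fold change 4.75 with SE 0.73, edgeR adjusted p = 8.52e-05), and the change was 5.43 without naive wt mouse 89. miR-483-5p rose by 3.53 (SE 0.42).

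miR-675 was rare. miR-675-5p read 22.3, 2.94, 10.0 and 12.8 CPM with vehicle and 0.633, 1.13 and 0 CPM in naive wt, which put mouse 41 close to the naive wt mice. Its log2 fold change was 4.26 (SE of 0.74, edgeR adjusted p = 0.000165), or 5.13 without naive wt mouse 89 and 1.98 with limma at a pseudocount of 5. At its naive wt levels miR-675-5p passed the filter on low counts only through mdx libraries, so its p-value is not independent support. miR-675-3p had 28 raw counts over the 4 vehicle libraries and 0 over the 3 naive wt libraries, which makes it at least 10.7-fold higher, with the floor of 3 counts taken over the naive wt group (0.466 CPM by library totals). Its edgeR adjusted p was 0.000121. With no count in naive wt, it passed the filter on low counts only through mdx libraries, so this p-value is not independent support. It was tested in 17 of 22 alternatives.

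Some of the other large rises were of miRNAs outside the lists. Except for miR-365-1-5p, those described here were picked after their values were seen. miR-193b and miR-365-1 are encoded 4238 bases apart on chromosome 16 and are known from brown fat. miR-193b-3p read 178, 78.7, 154 and 190 CPM with vehicle and 22.8, 15.2 and 19.8 CPM in naive wt (log2 fold change 2.96 with SE 0.40, edgeR adjusted p = 1.83e-05). miR-193b-5p rose by 3.65 (SE 0.64, and 4.60 without naive wt mouse 86) and miR-365-1-5p by 3.98 (SE 0.45), and all 4 tested miRNAs of this cluster were higher. miR-149-5p, from an intron of the proteoglycan gene Gpc1, read 2474, 1428, 1857 and 3518 CPM against 203, 166 and 110 CPM, with groups far apart (log2 fold change 3.86, SE 0.37). miR-1199-5p had 34 raw counts with vehicle and 0 in naive wt, at least 12.9-fold higher over the same group floor. Like miR-675-3p, it passed the filter on low counts only through mdx libraries.

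Smaller rises ran through 3 abundant families, beside 24.2% higher over all tested miRNAs. In the miR-30 family, which is expressed in many tissues and high in heart, 6 of 10 tested members were higher and none lower, with a median log2 fold change of 0.91. miR-30a-5p read 16080, 17610, 17446 and 15109 CPM with vehicle and 5933, 4669 and 4418 CPM in naive wt (log2 fold change 1.73 with SE 0.26, edgeR adjusted p = 7.62e-05). miR-30c-5p rose by 1.46 (SE 0.23) and miR-30d-5p by 1.23 (SE 0.24). In the miR-23, miR-27 and miR-24 clusters 8 of 11 were higher and none lower (median 0.90), a count that was 5 with upper-quartile factors, 5 without naive wt mouse 89 and 4 without naive wt mouse 95. miR-24-3p rose by 1.01 (SE 0.22) and miR-23a-3p by 0.90 (SE 0.21).

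The miR-29 family represses collagens and other matrix genes. Of 4 tested members 3 were higher and none lower, with a median of 1.04. miR-29a-3p read 5293, 7384, 6117 and 6644 CPM with vehicle and 3448, 3616 and 2665 CPM in naive wt, a log2 fold change of 0.97 (SE 0.24, edgeR adjusted p = 0.00315). miR-29c-3p rose by 1.11 (SE 0.27) and miR-29c-5p by 2.01 (SE 0.33). The groups did not overlap for these 3, as was so for 156 of all 174 called miRNAs.

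Liver miRNAs fell. Of 8 members of the liver list 4 were tested, and all 4 were lower, with a median log2 fold change of −2.32. miR-122-5p read 29725, 58631, 188547 and 27824 CPM with vehicle and 793122, 306406 and 881184 CPM in naive wt. Mouse 42 was the highest of the vehicle mice and mouse 89 the lowest of the naive wt mice, and still they did not overlap. The log2 fold change was −3.12 (95% interval −4.61 to −1.62, edgeR adjusted p = 0.00182), and −4.10 without mouse 42. miR-122-3p, the other arm, read 6.98, 10.3, 46.2 and 5.12 CPM against 81.7, 68.8 and 255 CPM, a log2 fold change of −2.99 (SE 0.67). It was −4.18 without mouse 42 and −2.06 without naive wt mouse 95.

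miR-192-5p and miR-194-5p, made together in liver, gut and kidney from hairpins 115 bases apart on chromosome 19, fell by 1.34 (SE 0.29) and 1.64 (SE 0.31) on the log2 scale. miR-194-5p is also made by a second hairpin, which lies close to that of miR-215 on chromosome 1. miR-215-5p, of the same seed as miR-192-5p and picked after its value was seen, fell by 0.94 (SE 0.31). This call was lost with library totals, with limma at both pseudocounts and without vehicle mouse 40, vehicle mouse 43 or naive wt mouse 89 (adjusted p up to 0.127). miR-148a-3p, abundant in liver and in the digestive tract, read 3725, 7394, 8847 and 3487 CPM with vehicle and 30579, 19946 and 26838 CPM in naive wt (log2 fold change −2.14 with SE 0.34, edgeR adjusted p = 0.000108). In the miR-148 and miR-152 family 3 of 5 tested members were lower and none higher, with a median of −0.80. The number lower was 2 with library totals and without vehicle mouse 40, vehicle mouse 43 or naive wt mouse 89.

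Members of the red blood cell list moved in both directions. miR-451a and miR-144, which are encoded 99 bases apart on chromosome 11 and are induced together as red cells mature, were lower. miR-144-3p read 39.1, 56.6, 32.3 and 21.1 CPM with vehicle and 161, 165 and 117 CPM in naive wt (log2 fold change −1.99 with SE 0.36, edgeR adjusted p = 0.000313). miR-451a read 3346, 2944, 2615 and 2365 CPM against 5935, 6038 and 4857 CPM (log2 fold change −0.99 with SE 0.22, edgeR adjusted p = 0.00163). The groups did not overlap for either. With limma on the deposited log2 values miR-451a did not pass at either pseudocount (highest adjusted p = 0.0661).

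The miR-486 members of the same list, which muscle also expresses, were higher. miR-486a-5p read 1970, 6822, 1430 and 2067 CPM with vehicle and 341, 272 and 259 CPM in naive wt, and miR-486b-5p read 7809, 2575, 4204 and 7812 CPM against 2412, 1958 and 1469 CPM. Their log2 fold changes were 3.40 (SE 0.49) and 1.52 (SE 0.40). Mouse 41 was highest for the first and lowest for the second, and without it the change of miR-486a-5p was 2.82. These near-identical miRNAs can exchange reads in the counting. Their sum was 9780, 9397, 5633 and 9879 CPM with vehicle and 2752, 2230 and 1728 CPM in naive wt, a ratio of means of 3.88, and here mouse 41 lay among the others. miR-486b-3p, picked after its value was seen, rose by 2.20 (SE 0.35). miR-486a-3p rose by 1.10 (SE 0.35), a call that was lost without naive wt mouse 89 or 95 (highest adjusted p = 0.0692).

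The level of miR-451a over that of miR-23a-3p is a common measure of red cell breakage in plasma, since miR-23a-3p hardly occurs in red cells. On the log2 scale it was −1.77, −1.67, −2.04 and −2.14 in the vehicle mice and 0.02, −0.11 and 0.11 in the naive wt mice, a difference in means of −1.91 with no overlap (two-sided exact permutation p = 0.0571, the smallest possible). The ratio thus moved with the groups, and through both of its members. miR-451a was lower (log2 fold change −0.99) and miR-23a-3p was itself higher (0.90), so the gap is not a reading of red cells alone. With this ratio as a covariate in edgeR, miR-206-3p (log2 fold change 3.90, SE 0.78, adjusted p = 0.0324) and miR-133a-5p (4.98, SE 0.83, adjusted p = 0.0108) passed, 2 higher and 0 lower in all. Median standard errors of the called miRNAs then were 0.847 in place of 0.375 for those higher and 0.849 in place of 0.319 for those lower, and 81 of the 89 and 64 of the 85 kept their sign.

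Epithelial miRNAs were uniformly lower. The miR-200 family keeps cells epithelial by repressing Zeb1 and Zeb2, and miR-203 and miR-205 mark stratified epithelia such as skin. All 7 members of the list were tested and lower, with a median log2 fold change of −1.35. None of the 7 overlapped between the groups, as was so for 156 of all 174 called miRNAs. miR-205-5p read 1715, 1158, 916 and 1211 CPM with vehicle and 5345, 5316 and 3520 CPM in naive wt (log2 fold change −1.92 with SE 0.24, edgeR adjusted p = 1.04e-05). miR-203-3p fell by 1.84 (SE 0.34), miR-141-3p by 2.06 (SE 0.36), and miR-200a-3p by 1.28 (SE 0.29). miR-200b-3p fell by 1.20 (SE 0.23).

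Fibroblast miRNAs were lower as well. miR-199a and miR-214 share 1 transcript in cells of connective tissue, and miR-21a-5p rises in fibrosis in many organs. Of 6 tested members of this list 5 were lower and none higher, with a median of −1.40. miR-199a-5p read 390, 449, 202 and 268 CPM with vehicle and 649, 865 and 1175 CPM in naive wt (log2 fold change −1.45 with SE 0.28, edgeR adjusted p = 0.000483). miR-214-3p fell by 1.36 (SE 0.25). miR-21a-5p fell by 0.84 (SE 0.28, adjusted p = 0.02), a call that was lost with library totals, with limma at both pseudocounts and without vehicle mouse 40, vehicle mouse 43 or naive wt mouse 95.

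Arms of 2 let-7 hairpins, let-7d and let-7f-1, were called on opposite sides. Over all tested miRNAs 24.2% were higher and 23.1% lower. The let-7 5p arms, guides that restrain growth in differentiated tissue, were lower for 7 of 10 tested members and higher for none (median −0.73). This count was 4 with library totals and 4 without vehicle mouse 43. The 3p arms were higher for 3 of 7 and lower for none (median 0.63), and both arms of let-7e had values under 0 (−1.23 for the 5p arm, called, and −0.23 for the 3p arm, not called). let-7f-5p read 3139, 5586, 3564 and 1902 CPM with vehicle and 8122, 12629 and 10740.3 CPM in naive wt (log2 fold change −1.57 with SE 0.34, edgeR adjusted p = 0.00131). let-7f-1-3p, from the same hairpin on chromosome 13, read 38.4, 42.7, 41.6 and 41.0 CPM against 17.1, 12.97 and 13.6 CPM (log2 fold change 1.49, SE 0.33). let-7f-5p is also made by a second hairpin, on chromosome X. let-7c-5p, among the 5 most abundant miRNAs in naive wt, fell by 0.69 (SE 0.20). Its call was lost with library totals, with no filter on low counts, with limma at both pseudocounts and without vehicle mouse 40 or 43 (adjusted p up to 0.169). let-7d-5p fell by 0.77 and let-7d-3p rose by 0.95 (SE 0.25).

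Families linked to cell division were lower, beside 23.1% lower over all tested miRNAs. Of the miR-15 and miR-16 family, which represses cyclins, 4 of 5 tested members were lower and none higher (median −1.30). Of the miR-17-92 cluster and its relatives, which promote proliferation, 8 of 15 were lower and none higher (median −0.68), but 1 with library totals, 3, 3 and 1 without vehicle mice 40, 42 and 43, and 3 and 4 without naive wt mice 89 and 95. miR-32-5p of this group fell by 1.88 (SE 0.43). miR-92b-3p read 29.3, 27.9, 27.7 and 22.4 CPM with vehicle and 47.5, 106.05 and 46.6 CPM in naive wt (log2 fold change −1.31 with SE 0.46, edgeR adjusted p = 0.0276), a call lost in 8 alternatives besides the red cell covariate (adjusted p up to 0.202) and with that covariate (adjusted p = 0.909).

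The Dlk1-Dio3 locus is an imprinted cluster whose miRNAs are active in embryos, brain and regenerating muscle. The list used here does not hold all of them, and among 13 tested miRNAs from 9 neighbouring hairpins of the locus 1 was higher and 2 were lower. Over all tested miRNAs 23.1% were lower and 24.2% higher. Of the 27 tested members of the list 11 were lower and none higher (median −0.75). The count was 2 with library totals, 7 with DESeq2, 2, 4 and 3 without vehicle mice 40, 42 and 43, and 4, 7 and 5 without naive wt mice 86, 89 and 95, while 1 was higher without vehicle mouse 40 or 43. miR-485-3p read 16.8, 6.62, 15.4 and 16.01 CPM with vehicle and 47.5, 52.5 and 40.9 CPM in naive wt (log2 fold change −1.77, SE 0.36). miR-434-5p fell by 1.23 (SE 0.32).

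Over all tested miRNAs 24.2% were higher and 23.1% lower, and the counts of the next lists stand beside that. Of the myeloid list 3 of 4 members were lower, none with library totals or without vehicle mouse 43, and 1 each without vehicle mouse 40 or naive wt mouse 89 or 95. miR-142a-5p fell by 0.72 (SE 0.21), a call lost in 8 alternatives besides the red cell covariate (adjusted p up to 0.188), 4 of which left out vehicle mouse 40 or 43 or naive wt mouse 89 or 95. miR-223-3p, the leading miRNA of neutrophils, read 209, 176, 160 and 139 CPM with vehicle against 294, 270 and 238 CPM (log2 fold change −0.65, edgeR adjusted p = 0.0661), and it passed with upper-quartile factors (adjusted p = 0.0238) and in edgeR and DESeq2 with the 2 groups only (0.0252 and 0.0395). Of the inflammatory list miR-146a-5p, a brake on NF-kB signalling, fell by 1.17 (SE 0.20), and miR-155-5p had a log2 fold change of 0.49 (95% interval −0.14 to 1.11), which passed without vehicle mouse 43 (0.81, edgeR adjusted p = 0.0301). Of the 3 members of this list 2 were lower and none higher, against 1 lower with library totals or without vehicle mouse 40, 41 or 43 or naive wt mouse 95. Of 8 lymphocyte miRNAs 1, miR-181b-5p, was higher, at 0.84 (SE 0.21), and none was lower, against 3 with upper-quartile factors and 2 without the miR-122-5p counts. miR-150-5p, the main miRNA of mature lymphocytes, overlapped between the groups, with a log2 fold change of −0.52 (95% interval −1.47 to 0.44).

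Some lists held no or few calls, where 24.2% of all tested miRNAs were higher and 23.1% lower. None of the 2 endothelial and platelet, 4 smooth muscle, 4 neuron and 1 pancreas miRNAs tested passed in either direction in edgeR, and none of these had an unadjusted p under 0.05. Without vehicle mouse 41, 2 endothelial and 1 neuron miRNA were lower and 1 smooth muscle miRNA higher. miR-126a-3p of endothelium read 4426, 9822, 4054 and 3529 CPM with vehicle and 6622, 9592 and 6313 CPM in naive wt, with mouse 41 inside the naive wt range, and its call depended on that mouse (adjusted p = 0.247, and 0.0274 without it). miR-143-3p of smooth muscle had a log2 fold change of −0.14 (95% interval −0.72 to 0.44), miR-375-3p of pancreatic islets of −0.57 (−1.35 to 0.21), and miR-9-5p of neurons of −1.36 (−2.73 to 0.02), which passed with no filter on low counts (edgeR adjusted p = 0.0101). Of 7 tested miRNAs of a list from dystrophic muscle tissue, 1 was lower, miR-335-3p, at −1.30 (SE 0.29), and 2 with upper-quartile factors or without vehicle mouse 40. None was higher, but 1 was without vehicle mouse 43. Of the miR-10, miR-99 and miR-125 families 1 of 7 was higher, miR-100-5p at 1.04 (SE 0.25), and 1 was lower in the main test (2 with upper-quartile factors), but none was lower with library totals, with DESeq2 or without vehicle mouse 40, 41 or 43 or naive wt mouse 86 or 95. miR-99a-5p, among the most abundant miRNAs in both groups, read 52539, 37913, 45048 and 56023 CPM against 50501, 42653 and 37167 CPM, with overlapping ranges (log2 fold change 0.14, 95% interval −0.34 to 0.62).

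**Figure D4:**
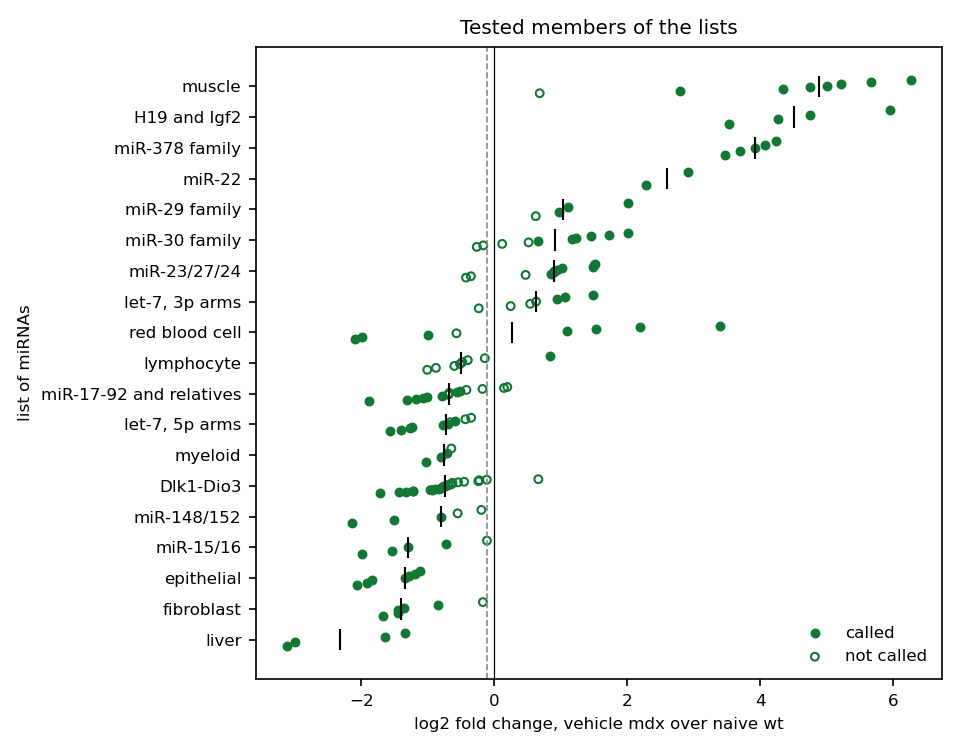
Each row is a list and each point a tested member at its log2 fold change of vehicle mdx over naive wt, filled where called by edgeR, with a bar at the list's median and a dashed line at −0.11, the median of all tested miRNAs. The muscle median stands at 4.88 and the liver median at −2.32, and the red blood cell list spans both sides.

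Called miRNAs were arranged by seed, by hairpin and by position. Of the 368 tested miRNAs 319 had a mature sequence in the RefSeq table. In all 16 seeds shared by at least 2 called miRNAs, the called members lay on 1 side, among them 7 let-7 miRNAs that were lower. Many of these seeds held only 2 called miRNAs. Of 87 hairpins with both arms tested, 25 had both arms called, 23 of these on the same side, and the exceptions were let-7d and let-7f-1. By position, 25 clusters of neighbouring hairpins held 2 or more called miRNAs, 23 of them with all calls on 1 side. The 2 mixed clusters were that of let-7a-1, let-7d and let-7f-1 and 1 in the Dlk1-Dio3 locus. Members of a seed family, a hairpin or a cluster can share reads or a transcript and are not independent. Higher miRNAs were richer in G and C than lower ones. The median GC content was 52.4% for 75 of the 89 higher miRNAs with a sequence, 43.5% for 78 of the 85 lower, and 50.0% for 166 of the 194 not called, a description without a test.

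Vehicle-dosed mdx mice were last set beside naive mdx mice. By the methods, naive mdx mice received no treatment, while the vehicle mice were gavaged with 0.5% methylcellulose over 15 weeks. Both were compared with the same 3 naive wt mice, so the results are not independent and are given side by side. miR-206-3p had a log2 fold change over naive wt of 4.76 with vehicle and 4.26 in naive mdx, and miR-133a-5p of 6.27 and 6.51. For miR-22-3p the values were 2.28 and 2.70, for miR-122-5p −3.12 and −3.91, for miR-451a −0.99 and −1.17, and for miR-205-5p −1.92 and −1.65. The muscle share was 28.3% to 39.7% in the naive mdx mice, overlapping that of the vehicle mice, and the miR-122-5p share 1.371% to 10.6%.

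Tested directly, vehicle and naive mdx plasma differed in 0 of 368 miRNAs (0%) in edgeR, with 17 at an unadjusted p under 0.05 and a smallest adjusted p of 0.801, and DESeq2 called 0 as well. The 95% intervals reached a median of 0.71 to either side on the log2 scale. The interval lay within 1 on either side of 0 for 193 miRNAs and reached further for 175, so differences of up to 2-fold were bounded for some miRNAs and not for others. miR-206-3p differed by 0.49 (95% interval −0.14 to 1.12) and miR-122-5p by 0.79 (−0.68 to 2.26). The smallest p-values belonged to miR-675-5p at 1.54 (0.38 to 2.69), miR-5107-5p at −1.50 (−2.66 to −0.35) and miR-136-3p at −1.13 (−2.01 to −0.26), none of which passed the test.

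**Figure D5:**
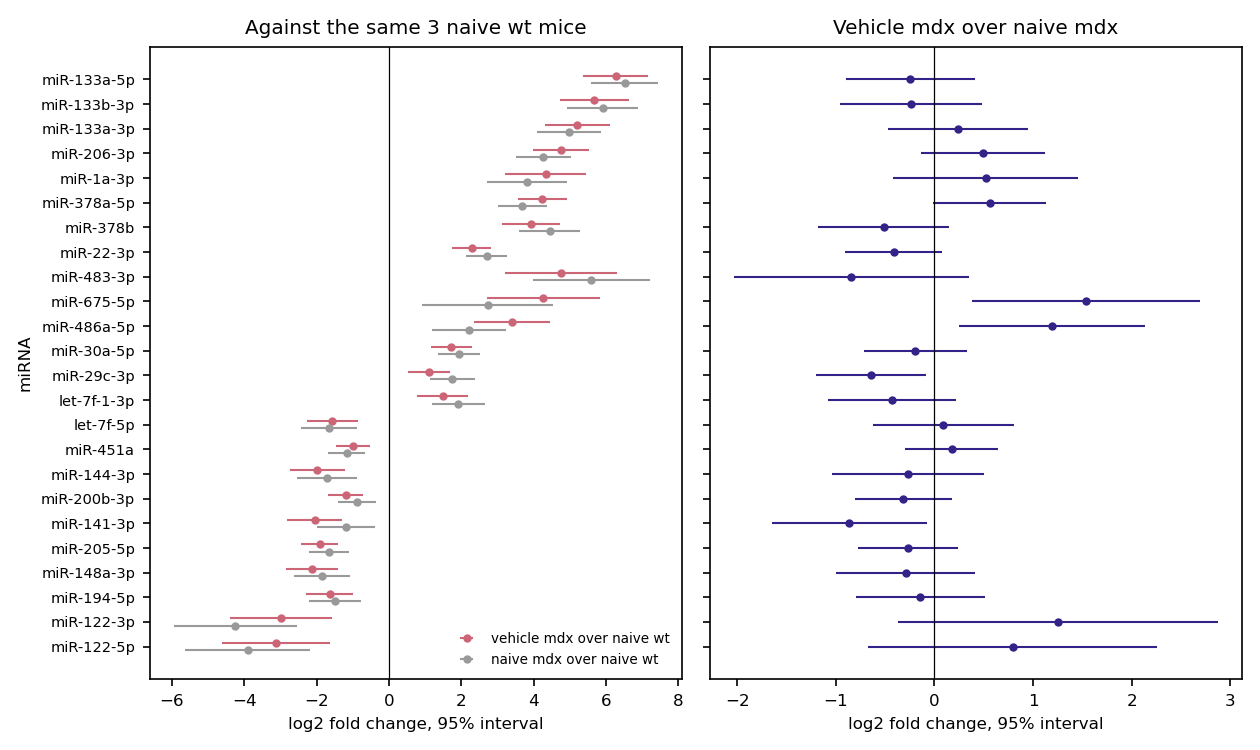
The first panel gives the log2 fold change with its 95% interval for 24 miRNAs in vehicle mdx and in naive mdx, each over the same 3 naive wt mice, and the second panel the direct difference of vehicle mdx and naive mdx. The first panel runs from 6.27 for miR-133a-5p to −3.12 for miR-122-5p with vehicle, and no difference in the second panel passed the test.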

How the data were processed

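Small RNA was sequenced from mouse plasma, with 1 library for each of 13 mice. The authors prepared libraries with adapter ligation and size selection, mapped reads to GRCm38 and annotated them with miRBase release 21. Reads of up to 25 bases were mapped with no mismatch. The submitters' processing notes list Bowtie 1.0.0, cutadapt 1.4.2 and bcl2fastq 1.37.0, and the methods name Trimmomatic. The authors deposited raw counts for 1907 mature miRNAs, each summed over its isomiRs, and these counts were used for all main results. They also deposited log2 values, each the log2 of the count plus a constant per library, with no value for counts of 3 or fewer; these entered the limma alternatives only, on the linear scale with a pseudocount of 1 or 5. Each column was assigned by its name, with 0 columns matched to no sample, and groups were taken from the sample titles. Titles give a separate animal number for each sample.

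Counts were filtered with filterByExpr (minimum count of 10), scaled by TMM and fitted in edgeR 4.0.16 (R 4.3.3) by glmQLFit and glmQLFTest with legacy = FALSE over all 13 libraries, which share 1 estimate of the spread. The contrasts were vehicle with naive wt and vehicle with naive mdx. Calls were made at a Benjamini-Hochberg adjusted p under 0.05. Standard errors are the log2 fold change over the square root of F. Single values per mouse went through exact permutation tests, two-sided (scipy 1.17.1). Total counts of the 7 libraries were 1283646 to 2899315, and TMM factors 0.733 to 1.23. The 9 pairs of libraries within the 2 groups were checked for copies, and all differed (lowest chi-square per degree of freedom 134). The fit was tested on simulated data.

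The comparison and its 26 lists of miRNAs were chosen with earlier results of these data known. The text names up to 10 higher and 10 lower miRNAs with the largest change among called ones that averaged 10 CPM or more and did not overlap, the 5 most abundant of each group, up to 4 members per list, miRNAs named by the study and the 3 smallest p-values against naive mdx, leaving some of these out. Sequences and positions come from RefSeq (GRCm38.p6) and host genes from GENCODE for GRCm38. Alternatives were library totals, RLE or upper-quartile factors as the scaling, other filters, DESeq2 1.42.0, edgeR with 2 groups, robust or legacy = TRUE, limma 3.58.1, counts without miR-122-5p or the red blood cell list, a red cell covariate, and each library left out. PCR reads carry no molecular identifiers. CPM are proportions, so amounts per volume of plasma are not known.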

Additional observations from a re-analysis of the deposited data

Results flagged for a closer look

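In 6 of the 80 sets of values checked over the 4 vehicle mice, 1 mouse stood apart from the other 3 by Dixon's ratio (its gap to the nearest mouse over the whole range). Chance flags about 1 in 20 such sets. Mouse 41 was lowest for miR-133b-3p (ratio 0.846) and miR-485-3p (0.865) and highest for miR-486a-5p (0.882) and miR-126a-3p (0.857). Mouse 42 was highest for miR-122-3p (0.874), the mouse that also had the highest miR-122-5p share, and mouse 40 for miR-29c-5p (0.873). For the miR-133b-3p, miR-485-3p, miR-486a-5p, miR-122-3p and miR-29c-5p values the groups did not overlap with that mouse included, and the calls of these 5 held without it.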

How the results depend on the processing

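Of 66 called miRNAs printed here, 58 kept their call and sign in every alternative that tested them, other than the red cell covariate. Some were not tested in all 22 alternatives, such as miR-675-3p (17) and miR-1199-5p (20). The number higher was 73 to 110 and the number lower 46 to 81 when a library was left out. The number lower was 44 with library totals and 39 at each pseudocount with limma on the deposited log2 values; the cause was not tested. With the red cell ratio (log2 of miR-451a over miR-23a-3p) as a covariate 2 were higher and 0 lower, and of the 66 called miRNAs 64 lost the call and 60 kept their sign. Under it the sign turned for miR-144-3p (0.60), miR-144-5p (1.07), miR-451a (0.16), miR-486b-5p (−0.14), miR-486a-3p (−0.091), miR-100-5p (−0.27), miR-99a-5p (−0.24), miR-223-3p (0.68), miR-150-5p (1.78) and miR-126a-3p (1.03), none called. The ratio separated the groups, so covariate and group overlap by construction. miR-451a is itself part of the ratio and miR-144 is induced together with it, so the turned signs of these miRNAs are no separate check. Taken with miR-486a-5p, the ratio differed by 2.21, the other way from −1.91, and with miR-144-3p by −2.97. miR-99a-5p turned to −0.059 with upper-quartile factors. miR-143-3p, not called, turned to 0.033 with limma at both pseudocounts and ranged from −0.29 to 0.14 when a library was left out, above 0 without vehicle mouse 40 or 43. Vehicle against naive mdx gave 0 calls in every alternative run.

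No paired analysis was possible because the groups share no animal numbers. Depth limited rare miRNAs, since a count of 0 allows 1.03 to 2.34 CPM by library totals.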
